A study of Mus musculus with 15 samples.

Results

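The 10 genes Bin1, Picalm, Sorl1, Cd2ap, Abca7, Plcg2, Inpp5d, Abi3, Spi1 and Cd33 are mouse counterparts of genes near which human genetic studies place risk of late-onset Alzheimer's disease. The list is one of names and uses no measured value, although earlier results of these data were known when it was drawn up, and each name was matched by its symbol to 1 gene identifier of the count files. They are 10 of the 55401 genes counted, and all 10 were among the 19536 genes that passed the filter on low counts. RNA was sequenced from the hippocampus of 15 female mice aged 18 to 20 months. Transgenic mice, labelled Tg2576 +/+, carry a transgene for human APP (amyloid precursor protein) that holds the Swedish mutation of familial disease. It is driven by the promoter of the prion gene and not by that of App. Their negative littermates, labelled Tg2576 -/- and called WT here, carry no transgene. Each mouse received either docosahexaenoic acid (DHA, an omega-3 fatty acid) at 450 mg/kg in sesame oil or sesame oil alone (vehicle) for 5 weeks. This gave 4 WT-Veh, 4 WT-DHA, 4 Tg2576-Veh and 3 Tg2576-DHA mice, all on the same oil. Total counts ran from 17372864 to 46596489 per mouse and overlapped between all groups, and App, to which reads of the human transgene can also map, stood at 1572 to 1787 CPM (counts scaled to a common library size) in the 8 WT mice and at 2077 to 2787 CPM in the 7 Tg2576 mice.

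The 10 genes fall into classes that act in different cells. Spi1, Inpp5d, Plcg2, Cd33 and Abi3 belong to myeloid cells, which in brain tissue are mainly microglia, the resident macrophages that gather around amyloid plaques. Signals from activating receptors pass through kinases and the phospholipase encoded by Plcg2, whereas the phosphatase encoded by Inpp5d restrains them. In human myeloid cells the receptor encoded by CD33 is inhibitory as well. Bin1, Picalm, Cd2ap, Sorl1 and Abca7 act on membranes in many cell types, where they bend membrane, bring cargo into clathrin-coated pits, sort cargo between compartments or move lipid. The amyloid precursor protein travels through these compartments before it is cut into amyloid-β.

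Levels are given as CPM adjusted by the trimmed mean of M-values (TMM), and to compare genes with each other they were divided by the counted length in kilobases. On this per-length scale the order of the mean levels over 15 mice was Bin1 at 84.4 ± 8.87 (SD) CPM per kb, Sorl1 at 35.4 ± 6.37, Picalm at 8.12 ± 0.711, Abca7 at 7.27 ± 0.809, Inpp5d at 2.21 ± 0.401, Spi1 at 2.10 ± 0.656, Plcg2 at 1.95 ± 0.283, Cd2ap at 1.34 ± 0.191, Cd33 at 0.955 ± 0.270 and Abi3 at 0.401 ± 0.0996. Bin1 lay above Sorl1, and Sorl1 above every other member, in all mice. The ranges over mice of Picalm and Abca7 overlapped, as did those of Inpp5d, Spi1 and Plcg2. Those of Plcg2 and Cd2ap, of Cd2ap and Cd33, and of Cd33 and Abi3 overlapped as well. These ranges pool mice of all groups, and within every mouse Plcg2 lay above Cd2ap and Cd33 above Abi3. The order of the other neighbours in these runs turned between mice. By mean level the 5 myeloid members held 5 of the 6 lowest places. The reads behind a value differed as widely, from 18 to 73 per mouse for Abi3 and 80 to 225 for Spi1 to 6418 to 24358 for Sorl1. The biological coefficient of variation was largest for the members with the fewest reads, at 24.4% for Abi3, 21.3% for Spi1, 19.1% for Cd33, 12.4% for Sorl1, 10.2% for Bin1 and 9.81% for Picalm.

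**Figure D1:**
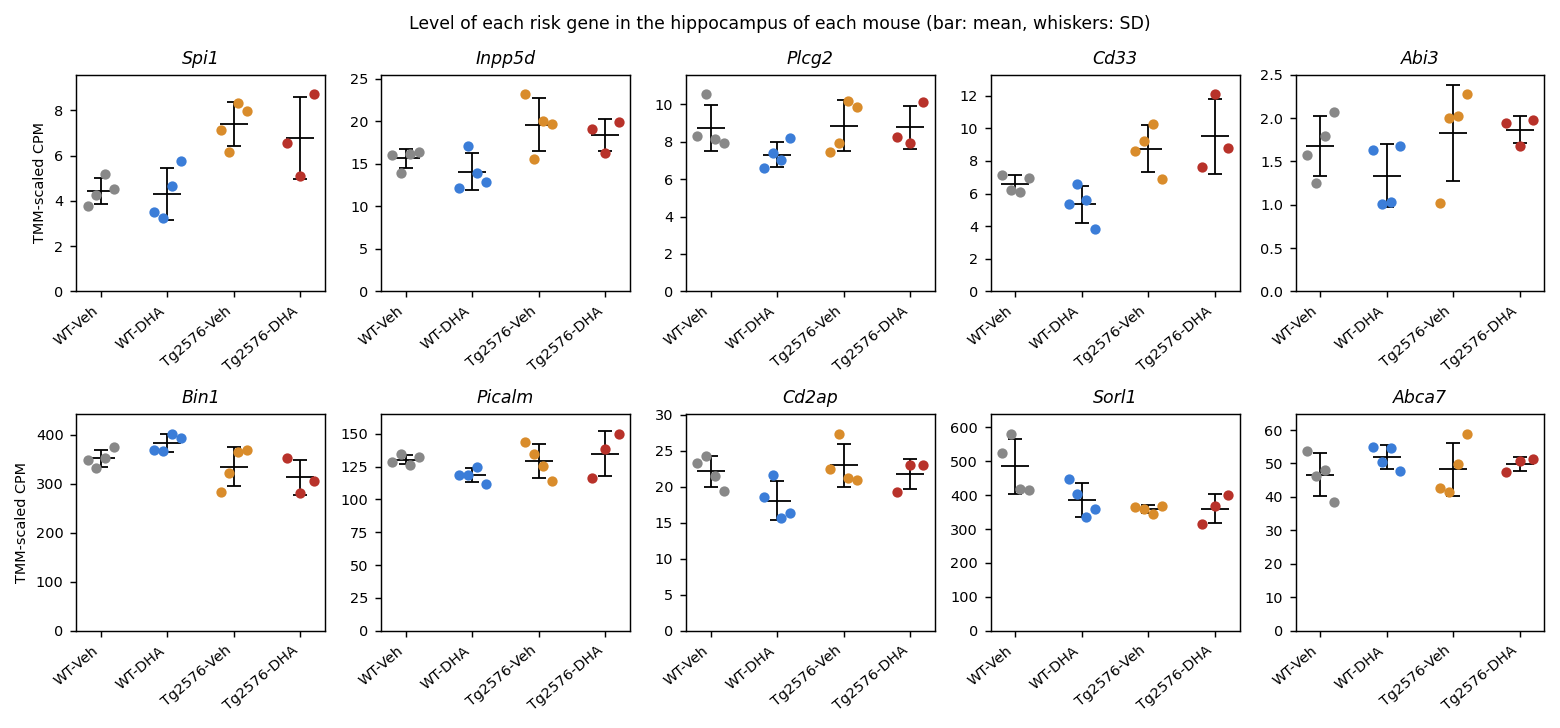
Level of each of the 10 genes in each mouse, as TMM-scaled CPM on an axis that starts at 0, for WT-Veh (grey, n = 4), WT-DHA (blue, n = 4), Tg2576-Veh (orange, n = 4) and Tg2576-DHA mice (red, n = 3). Points are mice, the short bar is the group mean and the whiskers are the SD. All 4 Tg2576-Veh mice lie above all 4 WT-Veh mice for Spi1 and below them for Sorl1.

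The protein of Spi1, PU.1, is a DNA-binding factor that recognises purine-rich DNA around the letters GGAA, so the start regions of 3 other myeloid members, Inpp5d, Cd33 and Plcg2, are shown. Each window holds 300 bases around a gene's start in RefSeq (assembly GRCm38.p6), most of them before it, on the gene's strand and from 5′ to 3′. Capitals mark exact matches, on either strand, to GAGGAAG or GGAAGT, which are purine-rich forms that can overlap each other, or to CACGTG, an E-box.
Inpp5d, chr1:87620062-87620361, + strand: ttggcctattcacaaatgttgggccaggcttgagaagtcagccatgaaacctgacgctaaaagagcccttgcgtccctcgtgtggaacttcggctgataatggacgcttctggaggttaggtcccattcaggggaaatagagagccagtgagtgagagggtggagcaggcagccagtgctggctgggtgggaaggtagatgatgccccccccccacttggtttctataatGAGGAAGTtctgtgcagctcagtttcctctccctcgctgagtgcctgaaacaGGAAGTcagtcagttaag
Cd33, chr7:43533122-43533421, - strand: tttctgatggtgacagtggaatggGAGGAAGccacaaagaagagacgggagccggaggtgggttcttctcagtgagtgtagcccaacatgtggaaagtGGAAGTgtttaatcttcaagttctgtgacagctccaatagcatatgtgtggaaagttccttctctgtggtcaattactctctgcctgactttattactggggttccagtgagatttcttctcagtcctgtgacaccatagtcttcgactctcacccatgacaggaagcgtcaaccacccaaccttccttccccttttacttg
Plcg2, chr8:117498025-117498324, + strand: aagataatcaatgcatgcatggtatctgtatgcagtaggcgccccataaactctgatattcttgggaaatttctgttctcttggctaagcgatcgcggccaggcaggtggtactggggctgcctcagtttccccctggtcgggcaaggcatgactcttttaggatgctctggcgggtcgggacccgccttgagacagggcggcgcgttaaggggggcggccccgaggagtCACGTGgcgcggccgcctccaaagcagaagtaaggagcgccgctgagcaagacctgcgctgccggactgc
In the Inpp5d window GAGGAAG began 20 bases before the start and ran into GGAAGT, and a further GGAAGT began 33 bases after the start. The RefSeq start used for Cd33 lies inside the counted gene, whose 5′ end is at chr7:43544428. In the Cd33 window GAGGAAG began 226 and GGAAGT 152 bases before that RefSeq start. The Plcg2 window held neither, but it held CACGTG 20 bases before the start. Of 32851 windows of this length in the table, 13.6% held GAGGAAG, 23.8% held GGAAGT and 7.15% held CACGTG. Among the members that act on membranes, the Picalm window held GAGGAAG and CACGTG, the first of 2 Sorl1 windows held GGAAGT and CACGTG, and the Abca7 and Cd2ap windows and the second Sorl1 window held none of the 3. Such matches are descriptions of the letters and do not show that a factor binds.

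The first question was which of the 10 genes differed between Tg2576 and WT mice on vehicle. Spi1 was higher and Sorl1 was lower at the unadjusted threshold of p under 0.01 in edgeR's quasi-likelihood test, and Inpp5d and Cd33 leaned higher in Tg2576 mice without passing it. These 2 calls among 10 genes stood beside 3.09% of all genes tested, and 2 members whose groups did not overlap, the same Spi1 and Sorl1, stood beside 5.16% of all genes. None of the 10 had an adjusted p under 0.05 over all genes, the lowest being 0.198 for Sorl1 (edgeR, Benjamini-Hochberg), and 4 had an unadjusted p under 0.05. With DESeq2 the adjusted p of Sorl1 was 0.0460 and that of Spi1 0.0483, and the range over all settings was 0.0460 to 0.619 and 0.0483 to 0.578. The median log2 difference of the 10 members was 0.051, against 0.00030 for all genes, and 7 of 10 were higher in Tg2576 mice.

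Spi1 (ENSMUSG00000002111.8, chr2:91082390-91115756, + strand, GRCm38) encodes PU.1, which myeloid cells, microglia among them, need to form and to keep their gene programme. The 4 WT-Veh mice stood at 3.79, 4.26, 5.20 and 4.51 CPM and the 4 Tg2576-Veh mice at 7.15, 6.14, 8.34 and 7.97 CPM. Every Tg2576-Veh mouse was thus above every WT-Veh mouse. The means were 4.44 ± 0.590 and 7.40 ± 0.974 CPM (SD, n = 4 each), a log2 fold change of 0.74 ± 0.21 (SE), with p = 0.00232 and adjusted p = 0.212 in edgeR and an exact permutation p of 0.0286. The latter, two-sided, is the smallest that 4 against 4 mice can give. Under DHA the WT mice stood at 3.52, 3.25, 4.66 and 5.76 CPM and the Tg2576 mice at 6.55, 5.08 and 8.71 CPM. Here 1 WT-DHA mouse, at 5.76 CPM, lay above the lowest Tg2576-DHA mouse, so the groups overlapped. The log2 fold change was 0.66 ± 0.22, with p = 0.00831 and adjusted p = 0.560 in edgeR and an exact permutation p of 0.114. It did not pass the unadjusted threshold in 7 of 15 fits without 1 mouse, and it was lowest, at 0.44, without Tg2576-DHA replicate 3. In bulk tissue a rise of such a transcript in each cell and a larger number of the cells that make it cannot be told apart.

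Inpp5d (ENSMUSG00000026288.14, chr1:87620312-87720507, + strand) encodes SHIP1, a lipid phosphatase that removes the product of phosphoinositide 3-kinase below immune receptors. It stood at 16.1, 13.9, 16.1 and 16.4 CPM in WT-Veh mice and at 23.2, 15.5, 19.98 and 19.7 CPM in Tg2576-Veh mice. The groups overlapped because of 1 Tg2576-Veh mouse, replicate 2, which lay below 3 of the 4 WT-Veh mice. The log2 fold change was 0.32 ± 0.13 (edgeR p = 0.0260, adjusted p = 0.391, exact permutation p = 0.114). Under DHA the WT mice stood at 12.2, 17.1, 13.97 and 12.9 CPM and the Tg2576 mice at 19.0, 16.3 and 19.9 CPM, with 1 WT-DHA mouse above 1 Tg2576-DHA mouse. The log2 fold change under DHA was 0.39 ± 0.14 (edgeR p = 0.0148, adjusted p = 0.627, exact permutation p = 0.114).

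Cd33 (ENSMUSG00000004609.11, chr7:43524216-43544428, - strand) encodes a sialic acid-binding receptor of the Siglec family that inhibits uptake by human myeloid cells. It stood at 7.15, 6.19, 6.12 and 6.95 CPM in WT-Veh mice and at 8.63, 9.24, 10.3 and 6.87 CPM in Tg2576-Veh mice. Tg2576-Veh replicate 4 lay among the WT-Veh mice and the other Tg2576-Veh mice above them, with a log2 fold change of 0.41 ± 0.18 (edgeR p = 0.0402, adjusted p = 0.435, exact permutation p = 0.0857). Under DHA the WT mice stood at 5.37, 6.56, 5.59 and 3.84 CPM and the Tg2576 mice at 7.63, 12.1 and 8.79 CPM. All 3 Tg2576-DHA mice were above all 4 WT-DHA mice. The means were 5.34 ± 1.13 (SD, n = 4) and 9.502 ± 2.31 CPM (SD, n = 3), a log2 fold change of 0.83 ± 0.20 with p = 5.58e-04 and adjusted p = 0.390 in edgeR and an exact permutation p of 0.0571. The latter is the smallest that 4 against 3 mice can give, so this design cannot reach 0.05 by that test. Without Tg2576-DHA replicate 2, the mouse at 12.1 CPM, the log2 fold change was 0.62 and still passed the unadjusted threshold. With the offset for GC content it was 0.71, past the same threshold.

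Plcg2 (ENSMUSG00000034330.10, chr8:117498291-117635142, + strand), the phospholipase that turns activating receptor signals into calcium release, ran from 6.60 to 10.5 CPM over the 15 mice. On vehicle its log2 fold change was 0.03 ± 0.15 with a 95% interval from -0.29 to 0.34. Under DHA it was 0.26 ± 0.16, with an interval from -0.08 to 0.60. Abi3 (ENSMUSG00000018381.15, chr11:95830074-95842476, - strand), an adaptor of the WAVE complex that starts branched actin filaments, ran from 1.01 to 2.28 CPM. Its log2 fold change was 0.13 ± 0.27 on vehicle and 0.48 ± 0.30 under DHA (edgeR p = 0.124, exact permutation p = 0.0571). Under DHA the 4 WT mice stood at 1.63, 1.01, 1.03 and 1.679 CPM and the 3 Tg2576 mice at 1.94, 1.685 and 1.97 CPM. The groups did not overlap, but the nearest mice differed by less than 0.01 CPM, and at these few reads the interval from -0.15 to 1.11 covers both no change and a log2 change above 1.

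The 5 myeloid members had positive estimates on vehicle and under DHA, with medians of 0.32 and 0.48 on the log2 scale. These signs held in the 10 other settings of the analysis. Plcg2 on vehicle turned negative in 4 of the 15 fits that each omitted a mouse. The 5 members that act on membranes were mixed, with 2 higher and 3 lower in each case and medians of -0.01 and -0.06.

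**Figure D2:**
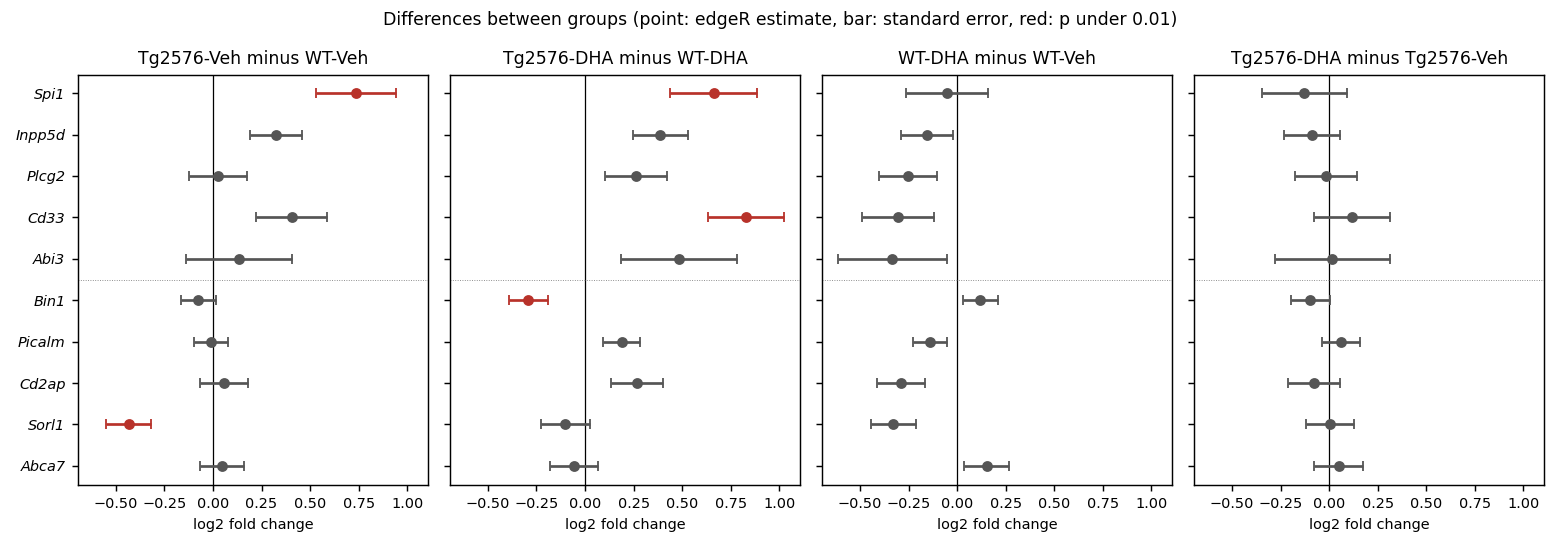
Log2 fold change of each of the 10 genes (points) with its standard error (bars) from the edgeR fit, in 4 comparisons of 2 groups. Red marks an unadjusted p under 0.01. The 5 myeloid members, above the dotted line, lie to the right of 0 in both comparisons of Tg2576 with WT mice and to the left of 0 in the comparison of DHA with vehicle in WT mice. In Tg2576 mice the estimates for DHA lie between -0.13 and 0.12.

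Sorl1 (ENSMUSG00000049313.8, chr9:41964720-42124297, - strand) encodes a sorting receptor that, with the retromer complex, returns the amyloid precursor protein from endosomes to the Golgi. The WT-Veh mice stood at 525, 582, 418 and 417 CPM and the Tg2576-Veh mice at 364, 360.2, 344 and 369 CPM. Every Tg2576-Veh mouse was below every WT-Veh mouse, and the Tg2576-Veh mice lay close together (SD 10.8 CPM) while the WT-Veh mice split into a pair at 525 and 582 CPM and a pair at 417 and 418 CPM (SD 81.9 CPM). The means were 485 and 359 CPM, a log2 fold change of -0.43 ± 0.12 with p = 0.00155 and adjusted p = 0.198 in edgeR and an exact permutation p of 0.0286. It passed the unadjusted threshold in every other setting, and the size ranged from -0.50 without WT-Veh replicate 4 to -0.32 without WT-Veh replicate 2. With an offset for gene length it was -0.29, past the same threshold. Sorl1 is counted over 11321 bases, against a median of 3693 bases for the genes tested, and the part of length in the difference was not tested further. Under DHA the WT mice stood at 448, 403, 337 and 358 CPM and the Tg2576 mice at 314, 368 and 399.7 CPM, and these groups overlapped. The log2 fold change under DHA was -0.10 ± 0.13 (edgeR p = 0.429, exact permutation p = 0.514), with a 95% interval from -0.36 to 0.16.

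Bin1 (ENSMUSG00000024381.16, chr18:32377230-32435737, + strand) encodes a protein that senses and bends membrane and that in brain is abundant in oligodendrocytes and neurons. On vehicle the WT mice stood at 348, 333, 352 and 375 CPM and the Tg2576 mice at 283, 322, 363 and 368 CPM, which overlapped (log2 fold change -0.07 ± 0.09). Under DHA the WT mice stood at 369, 366, 402 and 394 CPM and the Tg2576 mice at 351, 281 and 305 CPM. All 3 Tg2576-DHA mice lay below all 4 WT-DHA mice, with a log2 fold change of -0.29 ± 0.10, p = 0.00935 and adjusted p = 0.565 in edgeR and an exact permutation p of 0.0571. This call did not hold in 6 of 10 other settings nor in 13 of 15 fits that each omitted a mouse. The estimate came nearest to 0, at -0.22, without Tg2576-DHA replicate 2, the mouse at 281 CPM. The direction was negative in all of these fits.

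Picalm (ENSMUSG00000039361.11, chr7:90130213-90213465, + strand), an adaptor that sets the size of clathrin-coated vesicles, stood at 130.3 ± 3.71 CPM in WT-Veh and 129 ± 12.7 CPM in Tg2576-Veh mice. Under DHA the means were 118 ± 5.49 CPM in WT and 135 ± 17.2 CPM in Tg2576 mice (log2 fold change 0.19 ± 0.10, edgeR p = 0.0634, exact permutation p = 0.229). Cd2ap (ENSMUSG00000061665.7, chr17:42792951-42876665, - strand), a scaffold that ties endocytic vesicles to actin, did not differ beyond its spread on vehicle (0.06 ± 0.12) and had 0.27 ± 0.13 under DHA (edgeR p = 0.0610, exact permutation p = 0.114). Cd2ap is counted over 15864 bases, and the GC content of its longest transcript is 38.4%. Its estimate was 0.23 on vehicle with the offset for gene length and 0.09 under DHA with the offset for GC content. That of Picalm under DHA was 0.08 with the GC offset. Abca7 (ENSMUSG00000035722.15, chr10:79996494-80015572, + strand), a transporter that moves phospholipid across membranes, had estimates of 0.05 ± 0.11 and -0.06 ± 0.12. The 95% intervals of Abca7 reached from -0.20 to 0.29 on vehicle and from -0.32 to 0.20 under DHA.

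Under DHA, 3 of the 10 members passed the unadjusted threshold between genotypes (Cd33 and Spi1 higher, Bin1 lower), beside 1.75% of all genes, and 4 had an unadjusted p under 0.05. The groups did not overlap for 3 members (Cd33, Abi3 and Bin1), beside 8.56% of all genes. The median of the members was 0.26 on the log2 scale against -0.0035 for all genes, and the lowest adjusted p was 0.390 in edgeR. With DESeq2 the adjusted p of Cd33 was 0.0342, in a range over all settings from 0.0342 to 0.860. When only the 4 WT-DHA and 3 Tg2576-DHA mice were fitted, 1 call remained, that of Cd33.

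With both treatments averaged, 4 members passed the unadjusted threshold between Tg2576 and WT mice, beside 3.85% of all genes. Spi1 was higher by 0.70 ± 0.15 on the log2 scale (adjusted p = 0.0739, edgeR), Cd33 by 0.62 ± 0.13 (adjusted p = 0.0739) and Inpp5d by 0.36 ± 0.10 (adjusted p = 0.155). Sorl1 was lower, at -0.27 ± 0.09 (adjusted p = 0.224, edgeR), and lost its call in 7 of 15 fits without 1 mouse, with the smallest estimate, -0.21, without WT-Veh replicate 2. The calls of Spi1, Cd33 and Inpp5d held in all 15 of these fits. With DESeq2 the adjusted p was 0.00217 for Spi1, 0.00198 for Cd33 and 0.0378 for Inpp5d. Over all settings it ran up to 0.181, 0.176 and 0.291. The adjusted p was under 0.05 in 4 settings for Spi1, in 5 for Cd33 and in 1 for Inpp5d. Bin1 was at -0.18 ± 0.07 (adjusted p = 0.296, edgeR) and did not pass. With the offset for gene length 6 members passed, with Bin1 at -0.18 and Cd2ap at 0.25 added. With that offset and the replicate block 6 passed as well, with Cd2ap at 0.24 and Picalm at 0.17 added. The median of the 10 members was 0.15 against -0.0043 for all genes. These values average the comparisons given above and share their mice.

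The second question was whether DHA moved the 10 genes within a genotype. In WT mice no member passed the unadjusted threshold in edgeR, beside 1.38% of all genes, and 2 members, Sorl1 and Cd2ap, had a p under 0.05. Sorl1 was lower in WT-DHA than in WT-Veh mice by -0.33 ± 0.12 on the log2 scale (edgeR p = 0.0112, adjusted p = 0.702, exact permutation p = 0.114), with the 2 groups overlapping between 417 and 448 CPM. It passed the threshold with DESeq2, without TMM factors and without a filter, at -0.32 to -0.33. The estimate was -0.24 with the length offset and -0.23 without WT-Veh replicate 2, and passed in neither. Cd2ap stood at 23.3, 24.3, 21.5 and 19.4 CPM in WT-Veh mice and at 18.6, 21.6, 15.7 and 16.3 CPM in WT-DHA mice. Its log2 fold change was -0.29 ± 0.12 (edgeR p = 0.0315, adjusted p = 0.817, exact permutation p = 0.0857), and it was -0.19 with the GC offset and -0.18 with the length offset. Picalm stood at 128, 134, 126 and 132 CPM in WT-Veh and at 118, 118, 125 and 112 CPM in WT-DHA mice. It was the 1 member whose groups did not overlap, beside 5.02% of all genes, and its log2 fold change of -0.14 ± 0.09 had p = 0.136 in edgeR against an exact permutation p of 0.0286. With the GC offset the Picalm estimate was -0.06 and with the length offset -0.02. All 5 myeloid members had negative estimates in WT mice, from -0.33 to -0.05 with a median of -0.25, and none had a p under 0.05. The sign of Spi1 (-0.05 ± 0.21) turned in 3 fits without 1 mouse. Over the 10 members the median was -0.20, against -0.014 for all genes.

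In Tg2576 mice no member passed the unadjusted threshold for DHA in edgeR, beside 0.353% of all genes, none had an unadjusted p under 0.05, and the lowest was that of Bin1 (edgeR p = 0.344, exact permutation p = 0.457). No member had groups that did not overlap, beside 3.21% of all genes. The estimates ran from -0.13 ± 0.22 for Spi1 to 0.12 ± 0.20 for Cd33, with a median of -0.0067 against -0.0039 for all genes. The 95% intervals bounded a DHA difference in Tg2576 mice to between -0.26 and 0.27 for Sorl1, between -0.14 and 0.26 for Picalm and between -0.31 and 0.11 for Bin1. For Abi3, with the fewest reads, the interval ran from -0.61 to 0.64. The summed level of 6 choroid plexus markers was 3109 to 5147 CPM in the 3 Tg2576-DHA mice and 66 to 5814 CPM in the other 12 mice, and its part in any comparison with that group was not tested.

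The third question was whether the DHA difference itself differed between genotypes. No member passed in the interaction test of edgeR, beside 0.829% of all genes, and none had a p under 0.05. The lowest was that of Sorl1, whose interaction was 0.33 ± 0.17 on the log2 scale (adjusted p = 0.845, edgeR) with a 95% interval from -0.03 to 0.69. The mean of Sorl1 was 485 CPM on vehicle and 387 CPM with DHA in WT mice, and 359 and 360.4 CPM in Tg2576 mice, but this difference of differences did not pass the test and was 0.18 with the length offset. Cd33 had the largest estimate among the members, 0.42 ± 0.27 (adjusted p = 0.845, edgeR). With the GC offset that of Cd33 was 0.29, and Abi3 had the largest, 0.49. Averaged over both genotypes, 0 members passed the unadjusted threshold for DHA in edgeR and 0 were under 0.05, beside 0.87% of all genes, and their median was -0.11 against -0.0052 for all genes.

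Markers of the cell types that the tissue holds were set beside the members. All 12 homeostatic and all 16 plaque-associated microglial markers were tested. On vehicle the median log2 difference of the homeostatic markers was 0.16 with none past the threshold, and under DHA it was 0.44 with 5 of 12 higher, among them Csf1r, Gpr34, Cx3cr1 and P2ry12. Of the plaque-associated markers 4 of 16 were higher on vehicle (median 0.44) and 6 of 16 under DHA (median 0.58), with Cst7, an inhibitor of lysosomal proteases, at 3.02 ± 0.52 and 3.40 ± 0.57 on the log2 scale. The 8 markers of border macrophages had medians of 0.50 and 0.77 with 0 of 8 past the threshold in edgeR. Of 13 markers of blood leukocytes 8 were too low to test, among them Ccr2 and Ms4a1. Of the other 5, Ly6c2 was higher on vehicle and S100a8 under DHA. The summed level of the homeostatic markers was 379 to 404 CPM in WT-Veh, 328 to 376 CPM in WT-DHA, 315 to 512 CPM in Tg2576-Veh and 414 to 538 CPM in Tg2576-DHA mice.

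The 5 myeloid members summed to 36.2 to 37.8 CPM in WT-Veh, 29.3 to 35.3 CPM in WT-DHA, 40.9 to 50.8 CPM in Tg2576-Veh and 43.1 to 49.5 CPM in Tg2576-DHA mice. As a percent of the homeostatic marker sum this was 9.20% to 9.76% in WT-Veh, 8.59% to 9.75% in WT-DHA and 8.86% to 10.4% in Tg2576-DHA mice. In Tg2576-Veh mice it was 15.03%, 8.58%, 9.93% and 11.3%, the first of these in the mouse with the lowest marker sum of all 15. The mean was 9.51% ± 0.276 in WT-Veh (SD, n = 4), 9.16% ± 0.503 in WT-DHA (n = 4), 11.2% ± 2.78 in Tg2576-Veh (n = 4) and 9.48% ± 0.802 in Tg2576-DHA mice (n = 3). Inpp5d makes up the largest share of the members' sum, and Spi1 taken alone was 0.9997% to 1.36% of the marker sum in WT-Veh, 0.896% to 1.53% in WT-DHA, 1.29% to 2.27% in Tg2576-Veh and 1.23% to 1.62% in Tg2576-DHA mice. The ranges of Spi1 overlapped between genotypes on either treatment. How much of each member's difference goes with the markers was not tested.

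**Figure D3:**
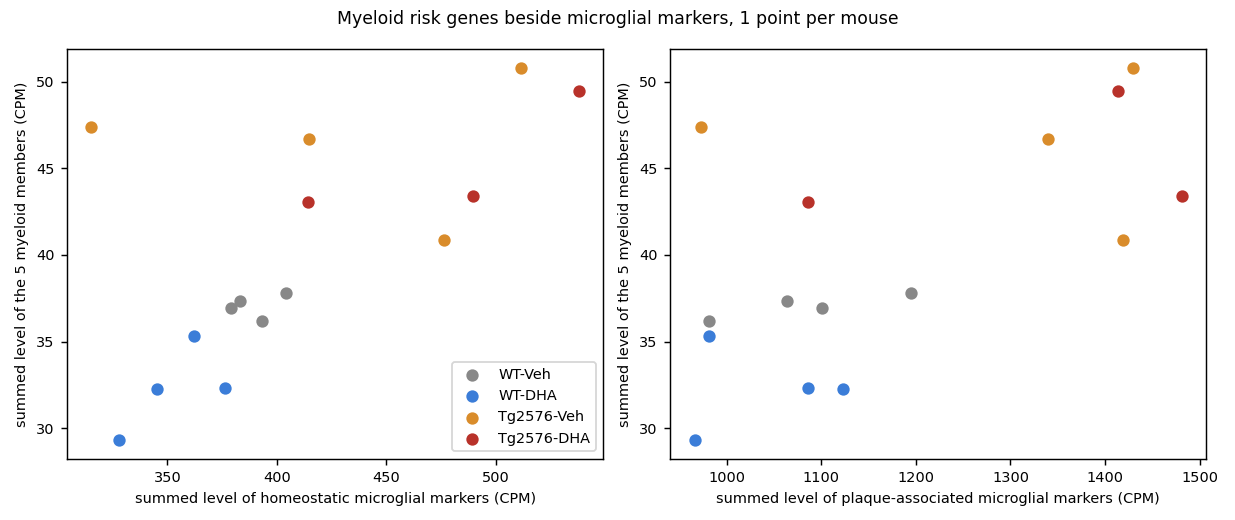
Summed level of the 5 myeloid members (vertical axes, CPM) against the summed level of 12 homeostatic (left) and 16 plaque-associated microglial markers (right, CPM), 1 point per mouse, coloured by group; the axes do not start at 0. The 7 Tg2576 mice lie above the 8 WT mice on the vertical axes, between 40.9 and 50.8 CPM against 29.3 to 37.8 CPM. Tg2576-Veh replicate 1 has 47.4 CPM of the members at the lowest homeostatic sum, 315 CPM.

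Markers of neurons and of other glia were set beside the members that act on membranes. The 10 oligodendrocyte markers had a median of -0.23 between genotypes on vehicle and of 0.02 under DHA, with 0 of 10 past the threshold in edgeR. In WT mice all 10 were lower with DHA (median -0.24), beside Bin1 at 0.12 ± 0.09. Of 9 neuronal markers 2 passed as lower in Tg2576 mice on vehicle (Prox1 at -0.46 ± 0.12 and Gad1 at -0.28 ± 0.08), beside Sorl1 at -0.43. In that comparison 6 of the 9 were below 0 and 3 above, with a median of -0.05. Under DHA 8 of 9 neuronal markers were below 0 and 1 passed, Slc17a7 at -0.32 ± 0.11, beside Bin1 at -0.29, and with both treatments averaged 3 of 9 were lower (Rbfox3, Camk2a and Prox1). Prox1, a marker of dentate granule cells, was also lower with DHA in WT mice, at -0.37 ± 0.12, where Sorl1 was at -0.33. Of the 9 neuronal markers 5 were above 0 and 4 below there, with a median of 0.03. The part of these markers in the Sorl1 and Bin1 values was not tested. Of 10 endothelial markers 1 was higher on vehicle, and of 7 astrocyte markers Gfap alone passed, at 1.02 ± 0.18 on vehicle and 1.01 ± 0.19 under DHA.

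The known partners of each member were taken from lists by function. Among 12 tested myeloid transcription factors other than Spi1, Cebpa was higher on vehicle (0.48 ± 0.13), and Irf8 (0.79 ± 0.20) and Irf5 (0.70 ± 0.22) were higher under DHA. The list had 11 of 12 estimates above 0 on vehicle, with a median of 0.32, and 10 of 12 under DHA, with a median of 0.10. Among 23 genes of immune receptor signalling, in which Inpp5d and Plcg2 act, 19 of 23 were above 0 on vehicle, 19 under DHA and 18 with both treatments averaged. Of these, Tyrobp, the adaptor of activating receptors, passed on vehicle at 0.93 ± 0.28, and under DHA none was called higher and Prkcd, a kinase that neurons of some regions also express, was lower at -0.58 ± 0.15. With both treatments averaged, 5 were higher (Tyrobp, Trem2, Fcer1g, Ptpn6 and Pik3cg) and Prkcd was lower. Of 6 tested Siglec receptors other than Cd33, 0 passed in edgeR on vehicle or under DHA (medians 0.23 and 0.44). Cd22 was higher with both treatments averaged, at 1.08 ± 0.36. The Siglec list includes Siglech and Mag, which also stand among the homeostatic and the oligodendrocyte markers above. Tyrobp and Trem2 are likewise among the plaque-associated markers, so these lists are not separate observations. Abi3 and Cd2ap act in the WAVE and actin capping machinery. Of 18 listed genes of this machinery 8 were above 0 and 10 below on vehicle, with a median of -0.01. On vehicle Rac2, a GTPase, was called higher (0.57 ± 0.16) and Cyfip1, a subunit in many cells, lower (-0.42 ± 0.11). Under DHA 13 of 18 were above 0, with a median of 0.06, and Arpc1b was called higher (0.45 ± 0.15). With both treatments averaged, Nckap1l, Rac2 and Arpc1b were called higher.

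Other partners of the members that act on membranes gave these counts. Of 22 genes of clathrin endocytosis, the machinery of Picalm and Bin1, 0 passed in any of the 7 edgeR comparisons, with medians of -0.07 on vehicle and -0.06 under DHA. Of 19 genes of the retromer and of sorting receptors related to Sorl1, Sort1 alone passed, lower on vehicle at -0.30 ± 0.10, beside Sorl1 at -0.43. Of 11 ABC lipid transporters related to Abca7, 0 passed in any edgeR comparison, with medians of -0.12 on vehicle and 0.06 under DHA. The counts of these lists are read beside the shares of all genes given above, and no test over a list was made.

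**Figure D4:**
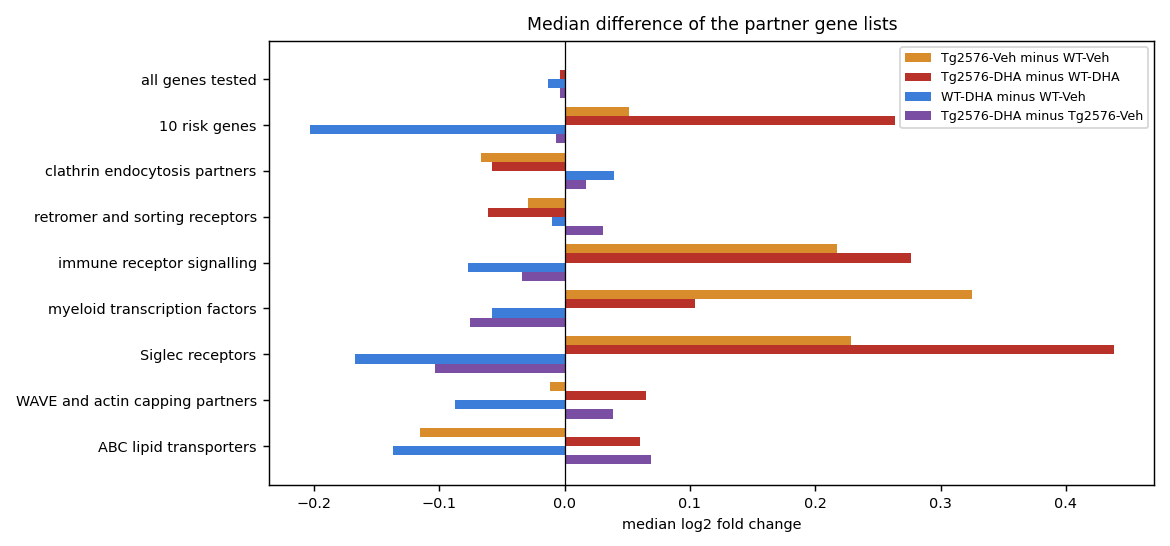
Median log2 fold change (bars) of all 19536 genes tested, of the 10 risk genes and of the 7 partner lists, in the 4 comparisons of 2 groups. Bars start at 0. The medians of immune receptor signalling, myeloid transcription factors and Siglec receptors lie between 0.10 and 0.44 in both comparisons of genotypes, and those of clathrin endocytosis and retromer genes between -0.07 and -0.03.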

How the data were processed

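Hippocampal RNA of 15 mice was analysed. The deposited files hold raw read counts of 55401 genes, which the authors made with featureCounts 1.6.0 after STAR 2.6.1c per the submitters' processing notes, on the annotation GENCODE M25 of GRCm38. The labels and the study's methods name different library kits, and the header gives no strand option, so overlapping genes on opposite strands may not be resolved. Reads shared by several places or genes are left out by default. Symbols came from GENCODE M21 by gene identifier without its version, and were found for 55141 genes. Each gene was counted over the union of its exons.

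In R 4.3.3 with edgeR 4.0.16, filterByExpr (minimum count 10) kept 19536 genes. TMM factors ran from 0.961 to 1.03. A quasi-likelihood model with 1 coefficient per group gave 7 two-sided comparisons. The threshold was the study's unadjusted p of 0.01. Adjusted p values (Benjamini-Hochberg) cover all genes tested. Standard errors came from the fold change and the root of F, and intervals are at 95%. Exact permutation tests compared log2 CPM (prior count 2). The p-values set a difference between groups against the spread between mice. In edgeR all groups share an estimate of that spread, and the permutation tests use only the groups compared. Precision follows the counts given per gene.

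Alternatives were DESeq2 1.42.0, limma-voom (limma 3.58.1), no TMM factors, no filter, at least 10 counts in every mouse, only the 2 groups compared, the replicate number as a block, and each mouse left out. Offsets for GC content and gene length were chosen after seeing the data. GC content was taken from the longest GENCODE M21 transcript of each gene. Simulated counts with known changes were used to test the scripts. The members, lists and tests were chosen with earlier results of these data known. Every member is named, along with list genes past the threshold, some of which are not reported here. Other list genes that are named, such as the untested leukocyte markers, were picked after their values were seen. Promoter sequences came from RefSeq (GRCm38.p6), from which windows of 7 of the 10 genes were used.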

Additional observations from a re-analysis of the deposited data

Results flagged for a closer look

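In 2 of 30 groups of 4 mice, over the 10 members, 1 mouse stood apart from the rest of its group by Dixon's gap ratio, and chance marks about 1 group in 20. Plcg2 in WT-Veh replicate 2 was at 10.5 CPM and the next highest WT-Veh mouse at 8.33 CPM, a gap ratio of 0.840 against the critical value of 0.829 for 4 mice. Inpp5d in the same mouse was at 13.9 CPM and the next lowest at 16.1 CPM, a gap ratio of 0.877. Both lie in 1 mouse, with Plcg2 high and Inpp5d low.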

How the results depend on the processing

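Spi1 and Sorl1 on vehicle, Cd33 under DHA, and Spi1, Cd33 and Inpp5d over both treatments kept direction and side of the threshold in every setting run. Bin1 under DHA lost its call in 6 settings and 13 fits without 1 mouse. Spi1 under DHA lost it with only the 2 groups compared and in 7 such fits, and Sorl1 over both treatments in 7. With DESeq2, Spi1 and Sorl1 on vehicle, Cd33 under DHA, and Spi1, Cd33 and Inpp5d over both treatments also had an adjusted p under 0.05. Why a call changed was not tested beyond what each setting leaves out. Abi3, Spi1 and Cd33, with fewest reads, have the widest intervals.

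Members called under DHA numbered 1 with only the 2 groups compared. Members called for DHA in WT numbered 1 with DESeq2, without TMM factors and without a filter, each time Sorl1. Members called on vehicle numbered 4 with the offset for gene length, which added Inpp5d and Cd33. The count of all genes was 431 for DHA in WT with only the 2 groups. For DHA in Tg2576 it was 126 with DESeq2, 126 without a filter, 29 with only the 2 groups and 105 with the length offset. For the interaction it was 247 with DESeq2 and 289 without a filter, and for DHA over both genotypes 263 without a filter.

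Small estimates that did not pass turned sign. Picalm on vehicle was 0.0239 without TMM factors, 0.00540 with only the 2 groups, 0.0128 with the GC offset, 0.156 with the length offset and 0.160 with the block and that offset. For DHA in Tg2576, Picalm was -0.0120 with the length offset and -0.00185 with the block too. Sorl1 there was -0.00234 with limma-voom and -0.0596 with the length offset, and Plcg2 was 0.0162 with the GC offset. Abca7 was 0.0440 under DHA, 0.0348 for the interaction and 0.0266 over both treatments with the GC offset. Over both treatments Abca7 was also 0.0269 without TMM factors, 0.000149 with at least 10 counts in every mouse and 0.0225 with the length offset. For the interaction, Inpp5d was -0.00630 with the length offset and Spi1 was 0.0640 with the GC offset.

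The replicate block was fitted although the numbers share only a label: over 21 same-numbered pairs the deviations from the group means correlated at a median of 0.0117 (-0.244 to 0.213). With the replicate block the calls on vehicle were 661 of all genes and 2 members, and under DHA 246 and 2, Bin1 being lost. For DHA in Tg2576, Sorl1 was -0.0216 and Plcg2 0.00938. With the replicate block and the length offset Sorl1 was -0.0575 and Plcg2 0.00982 there, Abca7 over both treatments 0.0265, and for the interaction Inpp5d was -0.00673 and Spi1 0.0346.

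With 1 mouse left out in turn, members called under DHA ranged from 1 to 3, with 1 without Tg2576-DHA replicate 3, WT-DHA replicates 1 or 3, or WT-Veh replicates 2 or 4. Members called for DHA in WT ranged from 0 to 1, with 1 without Tg2576-DHA replicate 1, WT-DHA replicates 1 or 2, or WT-Veh replicates 3 or 4. All genes called on vehicle ranged from 312 (without WT-Veh replicate 2) to 965 (without Tg2576-Veh replicate 1), with 377 to 400.0 without WT-Veh replicate 1 or Tg2576-Veh replicates 3 or 4. Under DHA they ranged from 190.0 (without WT-DHA replicate 4) to 460.0, with 222 without Tg2576-DHA replicate 3. For DHA in WT they ranged from 156 (without WT-Veh replicate 1) to 331, with 164 without WT-Veh replicate 2 and 178 without WT-DHA replicate 4. For DHA in Tg2576 they ranged from 53 to 312 (without Tg2576-DHA replicate 1), with 122 without Tg2576-Veh replicate 1 and more than that without Tg2576-Veh replicate 2. For the interaction they ranged from 87 (without WT-Veh replicate 1) to 527 (without Tg2576-DHA replicate 1), with 247 and 347 without Tg2576-Veh replicates 1 and 2, 90 when WT-DHA replicate 4 was omitted and 95 when Tg2576-DHA replicate 3 was. On vehicle Picalm ranged from -0.0631 to 0.0639, Cd2ap from -0.0393 to 0.119, Abca7 from -0.0494 to 0.123 and Plcg2 from -0.0479 to 0.136. For DHA in WT, Spi1 ranged from -0.226 to 0.0647. For DHA in Tg2576, Picalm ranged from -0.0216 to 0.162, Sorl1 from -0.0756 to 0.1001, Cd2ap from -0.130 to 0.0171, Abca7 from -0.0188 to 0.155, Plcg2 from -0.131 to 0.0556, Abi3 from -0.170 to 0.128, Spi1 from -0.347 to 0.0493 and Cd33 from -0.0901 to 0.260. For the interaction, Abca7 ranged from -0.180 to 0.000797, Inpp5d from -0.0330 to 0.177 and Spi1 from -0.294 to 0.0987. Over both treatments Abca7 ranged from -0.0490 to 0.0323, and for DHA over both genotypes Bin1 ranged from -0.0265 to 0.0546, Picalm from -0.0805 to 0.0175 and Spi1 from -0.200 to 0.00444.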

Other observations

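The genes whose log2 CPM ran most nearly parallel to that of a member over the 15 mice, among 19526 candidates, are given by Pearson's r as a description. The mice share their group differences and libraries, so no p is given. For Spi1 these were Bcl3 (0.93), C1qc (0.92), a complement subunit made by microglia, and Arhgap45 (0.90). For Sorl1 they were Vps13c (0.94), Ryr2 (0.93) and Nfasc (0.92), and for Picalm Wac (0.92), Abhd13 (0.91) and Polr3f (0.88). For Bin1 they were Chga (0.89), Ik (0.88) and Chgb (0.88), where Chga and Chgb encode proteins of dense-core vesicles. For Cd33 they were Eif5 (0.92), Ssr3 (0.91) and Katnbl1 (0.90). With each group centred on its own mean, r was 0.82, 0.79 and 0.74 for the genes named for Spi1. It was 0.85, 0.79 and 0.66 for those of Cd33, and between 0.85 and 0.93 for those of Sorl1, Picalm and Bin1. The genes nearest to the other members are not reported here.

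Members of one class did not always move together from mouse to mouse. Spi1 and Cd33, both higher in Tg2576 mice, had an r of 0.41 over 15 mice and of -0.65 once each group was centred on its own mean. Bin1 and Picalm had -0.78, and -0.71 after centring, and Bin1 and Cd2ap had -0.70 and -0.63. Base composition differs among these members (GC of 55.3% in Bin1, 42.1% in Picalm, 38.4% in Cd2ap, 58.9% in Spi1 and 41.3% in Cd33), and its part in these values was not tested.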
